A study of Homo sapiens with 6 samples.

Results

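The colony-stimulating factor genes CSF1, CSF2 and CSF3, the receptor gene CSF1R and TREM1 were followed across the 6 libraries of a comparison of 143B cells, an established human osteosarcoma line, with and without deletion of CNTNAP4. These 5 genes, of 54308 genes listed, are the rows of the deposited table that carry those symbols. They were chosen by their KO against VC differences in these same libraries, so those differences are given below as a description and not as a test. In the vector control (VC) group, 3 libraries came from control-transfected cells. For these the study's methods give a negative control plasmid with a guide sequence of its own. In the knockout (KO) group, 3 libraries came from cells given a CRISPR/Cas9 plasmid against CNTNAP4. The labels give 48 h of transfection for both groups and the study's methods a longer time. The methods also describe the sorting of RFP-positive cells of both transfections for single-cell clones, with a pair of KO colonies expanded. The labels do not say which colony each KO library came from, so differences between clones and the effect of the deletion cannot be told apart.

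The values are log2 signals, quantile-normalized by the authors so that each library spans -10.87 to 12.04 with a median of 0.62. The number of reads behind a value is unknown, and an empty cell marks a gene with no value in that library. Whether the signals were divided by transcript length is not given in the sources used here, so levels of different genes were not compared, and sums over marker genes are compared between libraries only. Genes with a value numbered 20333 to 21041 per library. On the first principal component of the 17698 genes with 6 values, which held 63.5% of the variance, VC libraries scored -48.4 to -46.7 and KO replicates 1, 2 and 3 scored 20.8, 73.8 and 48.9. CNTNAP4 itself had 1 value, -7.18 in VC replicate 3, so the table gives no fold change for the deleted gene. Of 9 osteoblast lineage markers, 6 had a value in every library, namely RUNX2, COL1A1, COL1A2, ALPL, SPARC and SPP1. IBSP had none, SP7 had 4 values and BGLAP was present in KO replicates 1 and 2 alone. By the limma test described below, 4 of the 7 markers tested were called higher in KO and 1, COL1A2, lower. Of all genes tested, 13.1% were called higher and 19.8% lower.

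Colony-stimulating factors are secreted proteins that drive the growth, survival and activation of myeloid cells. CSF1 (M-CSF) acts through CSF1R, a receptor tyrosine kinase of macrophages and osteoclast precursors that also binds IL34. CSF2 (GM-CSF) acts through a receptor made of CSF2RA and the shared beta chain CSF2RB, and CSF3 (G-CSF) through CSF3R, and these receptors signal by JAK kinases and STAT proteins. TREM1 is a receptor of neutrophils and monocytes that signals through the adaptor TYROBP (DAP12) and the kinase SYK and amplifies inflammatory responses. In bone, CSF1 is needed for osteoclast formation.

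Windows of 250 bases before the annotated start site were printed from RefSeq (GRCh38.p14) for the members whose transcripts rose in KO and for which a window was held, which was 3 of the 5 members and 4 windows. The submitters' processing notes name GRCh38.p13, and the deposited table holds no coordinates. CSF1 and CSF3 had no window. Capitals mark matches, on either strand, to 5 motifs chosen after the sequences had been seen. These were the AP-1 motif TGANTCA, the GAGATTCC part of the CK-1 element of cytokine promoters, the C/EBP motif TTNNGCAA, the NF-kB motif GGGNNNTNC and the RUNX motif TGTGGT. The NF-kB motif was also searched with a further C at its end. No match overlapped another.
CSF2, chr5:132073539-132073788, plus strand: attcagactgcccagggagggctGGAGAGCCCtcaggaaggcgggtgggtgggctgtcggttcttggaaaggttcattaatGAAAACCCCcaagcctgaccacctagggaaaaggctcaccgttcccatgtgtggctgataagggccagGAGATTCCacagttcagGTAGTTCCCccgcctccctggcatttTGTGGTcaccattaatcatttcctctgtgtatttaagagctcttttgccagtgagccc
CSF1R downstream start, chr5:150086555-150086804, minus strand: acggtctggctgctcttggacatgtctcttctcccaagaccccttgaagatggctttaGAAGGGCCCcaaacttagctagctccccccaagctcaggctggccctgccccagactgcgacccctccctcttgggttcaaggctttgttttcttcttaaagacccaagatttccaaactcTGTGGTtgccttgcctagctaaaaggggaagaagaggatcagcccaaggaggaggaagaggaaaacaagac
CSF1R upstream start, chr5:150113366-150113615, minus strand: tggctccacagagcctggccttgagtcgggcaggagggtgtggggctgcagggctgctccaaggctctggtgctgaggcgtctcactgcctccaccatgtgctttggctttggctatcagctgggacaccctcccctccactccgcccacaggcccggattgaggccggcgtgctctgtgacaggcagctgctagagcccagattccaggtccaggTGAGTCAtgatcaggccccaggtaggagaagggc
TREM1, chr6:41286683-41286932, minus strand: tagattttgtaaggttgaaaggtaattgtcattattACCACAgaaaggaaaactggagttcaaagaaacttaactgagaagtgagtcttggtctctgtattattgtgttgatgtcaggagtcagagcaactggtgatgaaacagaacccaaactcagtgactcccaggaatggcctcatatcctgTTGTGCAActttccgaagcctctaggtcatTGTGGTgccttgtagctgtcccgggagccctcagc

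The CSF2 window held the CK-1 letters from -101 to -94 and a RUNX match from -58 to -53, counted from the start site. GAGATTCC was present in 0.735% of the 35116 RefSeq windows of the same length. The NF-kB letters matched 3 times in CSF2, all on the opposite strand, at -227 to -219, -169 to -161 and -84 to -76, and once before the downstream CSF1R start, at -192 to -184, but 46.5% of all windows held them. Of these, the match from -84 to -76 also had the further C, a form found in 18.9% of all windows. The starts of CSF1R lie 26.8 kb apart. The downstream start is the one known from macrophages and the upstream start the one known from trophoblasts, and a gene-level signal does not tell them apart. A RUNX match lay from -71 to -66 before the downstream start and an AP-1 match from -34 to -28 before the upstream start. In TREM1, a C/EBP match lay from -65 to -58 and RUNX matches from -35 to -30 and, on the opposite strand, from -214 to -209. Of the 35116 windows, 3855 held a RUNX match, 6.57% an AP-1 match and 9.05% a C/EBP match. A match gives the letters only, and no binding was measured.

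**Figure D1:**
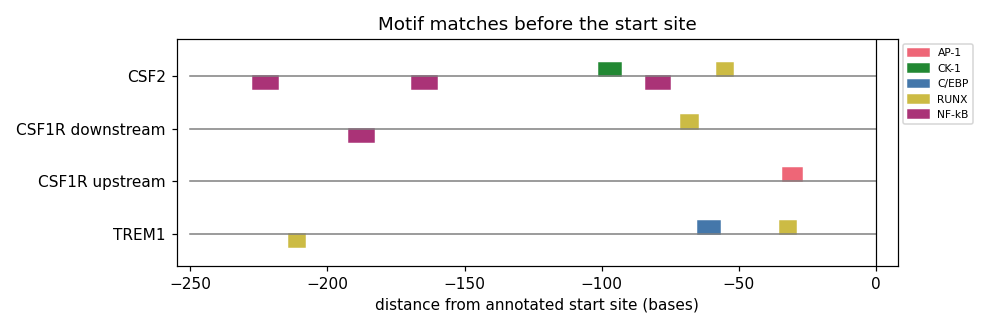
Positions of the motif matches in the 4 windows of 250 bases before an annotated start site (x axis, bases; the start site is at 0). Boxes above a line are on the strand of the gene and boxes below it on the opposite strand; RUNX matches appear in 3 of the 4 windows, NF-kB matches in 2 and the CK-1 match in CSF2.

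Messenger RNAs of colony-stimulating factors are also known for AU-rich elements, repeats of ATTTA in the 3′ untranslated region that recruit decay proteins. Such sites were counted in GENCODE release 29 (GRCh38), taking for each gene the protein-coding transcript with the longest annotated region. CSF2 held 8 copies of ATTTA in 318 bases, or 25.2 per kb, against a median of 1.58 per kb over 18258 genes with at least 100 bases. CSF3 held 7 copies in 854 bases (8.20 per kb), CSF1 held 4 in 2154 bases (1.86 per kb), TREM1 held 3 in 1343 bases and CSF1R held 0 in 778 bases. The nonamer ATTTATTTA occurred 4 times in CSF2, in none of the other members and in 6.92% of 19127 genes. The 30 bases with most copies are shown for the ligands, with ATTTA in capitals.
CSF2, chr5:132076072-132076101, plus strand: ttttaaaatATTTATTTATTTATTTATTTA
CSF3, chr17:40016975-40017004, plus strand: tcccatgtATTTAtctctATTTAatATTTA
CSF1, chr1:109930911-109930940, plus strand: tttatataaagtcATTTAaatatctATTTA
The overlapping copies of CSF2 numbered 5 within this stretch, against 3 in CSF3 and 2 in CSF1.

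CSF2, CSF3, CSF1R and TREM1 were each higher in every KO library than in any VC library with a value, and CSF1 was not. That made 4 of the 5 members with higher, non-overlapping KO values, a count that the choice of members fixes. Of the 19306 genes that had 2 or more values per group, 57.1% had groups that did not overlap, 21.5% with KO higher and 35.6% with KO lower. In bulk RNA, fewer cells with a transcript and less of it per cell cannot be told apart.

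The CSF2 signal was -5.41, -5.35 and -4.51 in the VC libraries and 0.28, 0.37 and -0.61 in the KO libraries, here and below in the order of replicates 1 to 3. The lowest KO library thus lay 3.90 log2 units above the highest VC library, far more than the range within VC (0.90) or KO (0.99). The VC mean was -5.09 ± 0.50 and the KO mean 0.014 ± 0.55 (SD, n = 3 each), a difference of 5.11 on the log2 scale, or 34.5-fold. This difference was the 3rd largest rise of the 19306 genes.

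CSF3 had signals of -0.54, -1.18 and -0.91 in the VC libraries and of 2.14, 2.57 and 1.35 in the KO libraries. The groups were 1.89 log2 units apart at their nearest, and KO replicate 3 was the lowest of the KO libraries for CSF3, as it was for CSF2. The VC mean of CSF3 was -0.88 ± 0.32 and its KO mean 2.02 ± 0.62 (SD, n = 3 each), a difference of 2.90, or 7.45-fold.

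CSF1 was 1.70, 1.65 and 1.84 in VC and 1.84, 1.52 and 1.57 in KO. The KO values spanned those of VC, with KO replicate 1 the highest of all 6 libraries. The means of CSF1 were 1.73 ± 0.096 and 1.64 ± 0.17 (SD, n = 3 each), and the difference of -0.087 was smaller than the range within either group (0.19 in VC and 0.33 in KO). Among the 19306 genes, 52.9% had a lower difference than CSF1.

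CSF1R, the receptor of CSF1, had signals of -5.27, -4.98 and -4.93 in VC and of -3.01, -2.68 and -3.02 in KO. Its replicates were the tightest of the 4 members that separated, with a range of 0.33 in VC and 0.35 in KO and a gap of 1.91 between the groups. The means of CSF1R were -5.06 ± 0.18 and -2.90 ± 0.19 (SD, n = 3 each), a difference of 2.16, or 4.46-fold.

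TREM1 had no value in VC replicate 1, values of -8.56 and -6.72 in the other VC libraries and of -4.81, -2.44 and -2.94 in KO. Both groups were wide, with 1.85 log2 units between the VC values and 2.36 among the KO values, and the gap between the groups was 1.91. The mean of the 2 VC values was -7.64 (SD 1.31) and that of the 3 KO values -3.40 ± 1.25 (SD, n = 3), a difference of 4.24, or 18.9-fold, from 5 libraries. With the empty cell set to the lowest signal of its library the difference was 5.32.

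KO replicate 2 was the highest KO library for all 4 of CSF2, CSF3, CSF1R and TREM1, and it was also farthest from VC on the first component. Without it, their differences were 4.93, 2.62, 2.05 and 3.77. The highest KO library was not counted over all genes that rose, so this order cannot be called particular to the 4 members. Adding 1 to the linear signal before the log2 reduced the differences to 0.98 for CSF2, 1.72 for CSF3, 0.14 for CSF1R and 0.15 for TREM1. CSF1R and TREM1 lie below a linear signal of 1 in every library and CSF2 in 4 of 6. The order of the 4 differences changed with this addition.

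**Figure D2:**
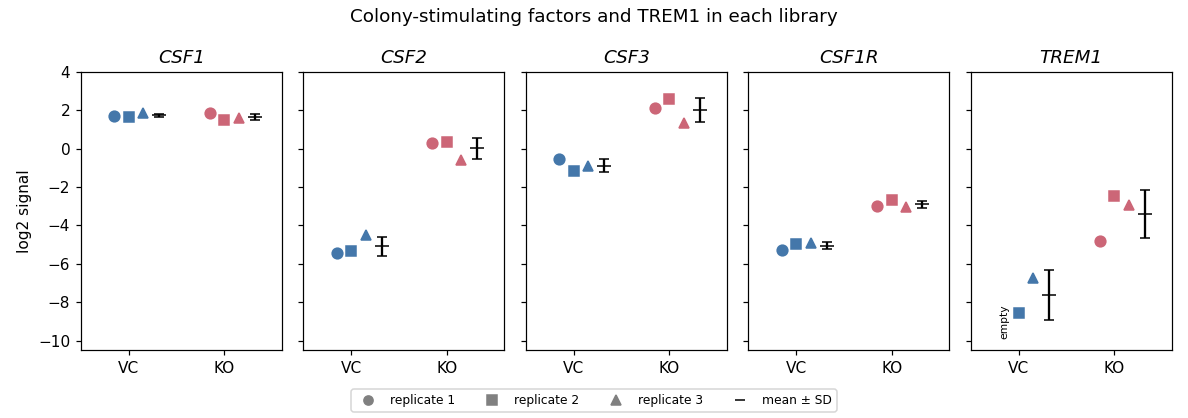
The log2 signal (y axis) of the 5 members in the 3 VC and 3 KO libraries; each symbol is a library, and the bars beside them are group means ± SD. CSF1 lies between 1.52 and 1.84 in all libraries, whereas the KO libraries of CSF2, CSF3, CSF1R and TREM1 lie above their VC libraries, and TREM1 has an empty cell in VC replicate 1.

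The partners of these genes were read from 6 lists of 72 genes, of which 70 were listed in the table, 65 had a value in some library and 57 could be tested. CSF2RA and IL3RA were not analysed here. With limma's moderated test and Benjamini-Hochberg adjustment over all 19306 genes, 17 of the 57 were higher in KO (29.8%, against 13.1% of all genes tested) and 8 were lower (14.0%, against 19.8%). Together 25 were called (43.9%, against 32.9% of all genes). The median log2 difference of the 57 was 0.019, beside -0.13 over all genes tested. In a fit of only the upper 50% of the 19306 genes by mean signal, 5702 genes were called. The partners called there were again 17 higher and 8 lower. The shares over all genes, here and below, are therefore not matched for signal level, and an excess of called partners was not tested. Without VC replicates 1, 2 and 3, the higher partners numbered 9, 11 and 9 and the lower ones 2, 3 and 2. All genes called in those fits numbered 1403, 2450 and 1223, against 6354 in the main fit. Without KO replicates 1, 2 and 3, the higher partners numbered 15, 12 and 12 and the lower ones 16, 5 and 3. All genes called then numbered 8669, 4393 and 2018, so the totals over all genes moved as well.

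Of the receptor chains for CSF2 and CSF3, CSF2RB and CSF3R each had a value in 1 or 2 of the 6 libraries, and CSF2RA was not analysed here. CSF2RB had a value in KO replicate 2 alone (-8.11). CSF3R, the receptor of CSF3, had -6.74 in VC replicate 3 and -7.66 in KO replicate 2 and was empty in the other 4 libraries. IL34, the other ligand of CSF1R, had values in VC replicates 1 (-6.71) and 3 (-5.20) and none in KO. IL3 had no value, IL5RA had -8.57 in KO replicate 1 alone, and IL5 had 4 values between -7.62 and -6.01.

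Of the related growth factors and receptor kinases, FLT3 was the only gene of the ligand and receptor list that was called. FLT3, the receptor of FLT3LG on blood progenitors, was -1.78, -2.25 and -1.58 in VC and -3.48, -3.16 and -3.05 in KO, a log2 difference of -1.35 (standard error 0.21, limma adjusted p = 0.0138). In leave-one-out fits FLT3 stayed called in 4 of 6, and the highest limma adjusted p was 0.0538. KIT, the stem cell factor receptor, had a difference of -0.98 (limma adjusted p = 0.0618). Its ligand KITLG had one of 0.32 (limma adjusted p = 0.0602). The groups did not overlap for either gene, as for 57.1% of all genes tested. After centring the libraries on their medians, KITLG had a limma adjusted p of 0.0295 and KIT one of 0.0656. In the 6 leave-one-out fits KITLG was called in 0 and KIT in 1. FLT3LG differed by 0.16 with overlapping groups (limma adjusted p = 0.392).

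Most partners of TREM1 also had few values or none. TYROBP, the adaptor TREM1 needs for signalling, had 1 value, -4.01 in VC replicate 1, the library in which TREM1 itself was empty. SYK had -8.22 in VC replicate 2, with -8.33 and -8.30 for KO replicates 1 and 3. PGLYRP1, a ligand of TREM1, and TREM2, TREML1 and TREML4 had no value in any library. HCST, an adaptor related to TYROBP, had no value in VC and -5.61, -4.05 and -5.59 in KO, and TREML2, of the same family as TREM1, had -7.80 in VC replicate 3, with -6.22 and -5.48 for KO replicates 1 and 2. CARD9 was the one TREM-group gene that could be tested, with a difference of 0.30 (limma adjusted p = 0.631).

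**Figure D3:**
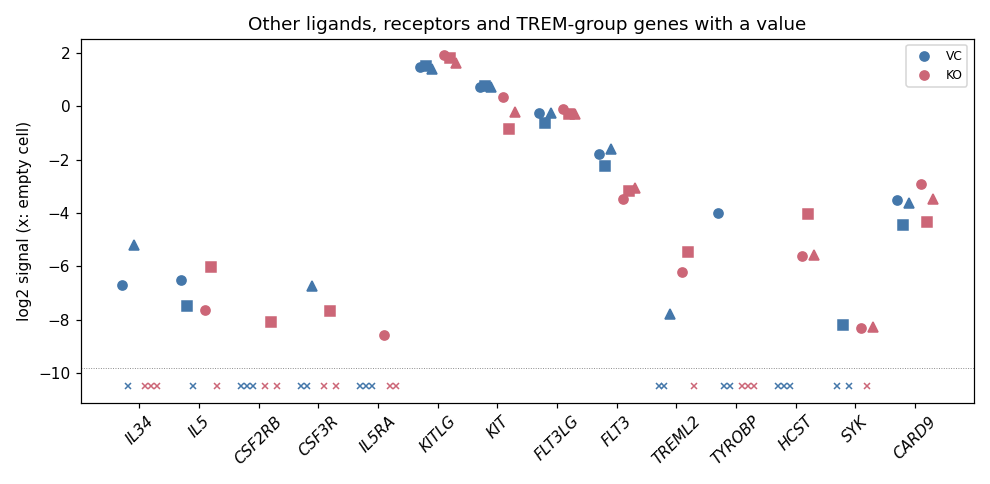
The log2 signal (y axis) of the 14 genes of the ligand, receptor and TREM lists with a value in some library; circles, squares and triangles are replicates 1, 2 and 3, and a cross below the dotted line is an empty cell. FLT3 lies lower in the 3 KO libraries, and CSF2RB, CSF3R and TYROBP have 1 or 2 values of 6.

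Downstream of the receptors, 4 of 19 signalling genes rose and 2 fell, and the median difference of the list was 0.0070. These were 21.1% and 10.5% of the list, against 13.1% and 19.8% of all genes tested. STAT5A, a transcription factor used by the CSF2 receptor, was -3.29, -3.01 and -3.40 in VC and -1.64, -1.17 and -1.94 in KO, a difference of 1.65 (standard error 0.23, limma adjusted p = 0.0113). Its close relative STAT5B differed by -0.0072 (limma adjusted p = 0.949). CBLB, a ubiquitin ligase that limits receptor signalling, was -0.21, -0.27 and -0.17 in VC and 0.77, 1.29 and 0.93 in KO, a difference of 1.22 (limma adjusted p = 0.00967). SOCS2, a feedback inhibitor of cytokine receptors, rose by 0.64 (limma adjusted p = 0.0158) and the adaptor SH2B3 by 0.42 (limma adjusted p = 0.0413). The adaptor GRB2 and the phosphatase PTPN11 fell by 0.31 and 0.47 on the log2 scale (limma adjusted p = 0.0442 and 0.0175). The other 13 genes of the list were not called, and their differences lay between -1.66 (PTPN6) and 0.63 (SOCS1). STAT5A and CBLB were called in all 6 leave-one-out fits, SOCS2 in 4, PTPN11 in 2, and GRB2 and SH2B3 in 1, and after median centring GRB2 was at a limma adjusted p of 0.0699.

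Of 17 transcription factors known from the control of CSF genes, 9 rose and 1 fell, with a median difference of 0.33. That was 52.9% higher and 5.88% lower, against 13.1% and 19.8% of all genes tested. RELB, an NF-kB subunit of the noncanonical pathway, had a VC mean of 1.87 ± 0.15 and a KO mean of 4.04 ± 0.28 (SD, n = 3 each), a difference of 2.17 (standard error 0.17, limma adjusted p = 0.00597). Its partner NFKB2 rose by 1.94 (limma adjusted p = 0.00705) and CEBPB by 1.71 (limma adjusted p = 0.00912). CEBPA, the family member of myeloid differentiation, was lower, with means of 0.96 ± 0.14 for VC and 0.011 ± 0.15 for KO (SD, n = 3 each), a fall of 0.95 (limma adjusted p = 0.00985). The other 6 genes that rose, NFKB1, RELA, CEBPD, JUN, FOS and ETS1, did so by 0.30 to 0.97. RELB, NFKB2, CEBPB, CEBPA, JUN and ETS1 were called in all 6 leave-one-out fits, and NFKB1, RELA, CEBPD and FOS in 1 or 2. RUNX1 and SPI1, singled out after their values were seen, differed by -0.048 (limma adjusted p = 0.576) and -0.66 (limma adjusted p = 0.09).

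Among 10 genes listed for the binding or decay of CSF messenger RNAs, 2 rose and 3 fell, and the median difference was -0.23. The shares were 20% and 30%, against 13.1% and 19.8% of all genes tested. ZC3H12A, an endonuclease that cleaves inflammatory transcripts, was 0.84, 0.57 and 0.83 in VC and 2.14, 2.14 and 1.66 in KO, a difference of 1.23 (limma adjusted p = 0.0112). ZFP36L1 rose by 0.76 (limma adjusted p = 0.0196), and its relative ZFP36L2 fell by 0.68 (limma adjusted p = 0.0276). ZFP36 itself, the best known binder of the AU-rich element of CSF2, differed by -0.12 with overlapping groups (limma adjusted p = 0.541). HNRNPD, a destabilizing factor, and ELAVL1, a stabilizing factor, fell by 0.59 and 0.44 (limma adjusted p = 0.0366 and 0.0482). ZC3H12A was called in all 6 leave-one-out fits, ZFP36L1 and ZFP36L2 in 2, and HNRNPD and ELAVL1 in 1, and after median centring ELAVL1 was at a limma adjusted p of 0.0534.

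Of 5 genes for shedding and sorting of surface and secreted proteins, 2 rose and 1 fell, with a median difference of -0.035. This came to 40% and 20% of a short list, against 13.1% and 19.8% of all genes tested. ADAM17, the protease that releases CSF1 and the CSF1R ectodomain from the cell surface, was 1.05, 1.06 and 1.02 in VC and 1.33, 1.70 and 1.48 in KO, a difference of 0.46 (limma adjusted p = 0.0312), and was called in 2 of 6 leave-one-out fits. RHBDF1, a cofactor of ADAM17, rose by 1.38 (limma adjusted p = 0.0111). The sorting receptor SORT1 was 4.24, 4.24 and 4.22 in VC and 3.60, 3.39 and 3.53 in KO, a fall of 0.73 (limma adjusted p = 0.00883). RHBDF1 and SORT1 were called in all 6 of those fits.

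**Figure D4:**
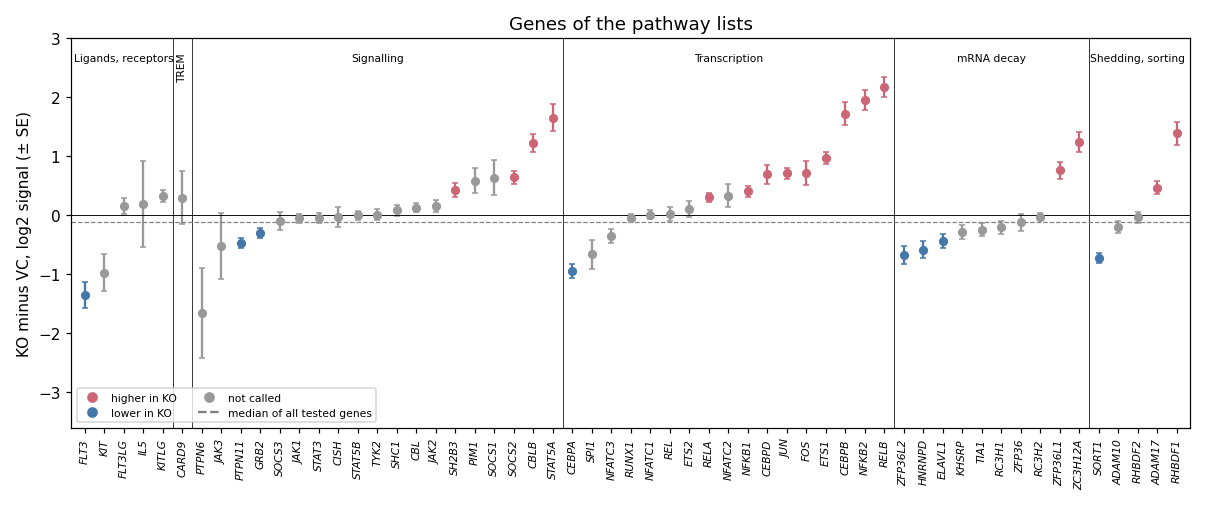
The KO minus VC difference of log2 signals (y axis, ± standard error, 3 libraries a group, fewer where cells were empty) for the 57 tested genes of the 6 lists; colours give the call at an adjusted p under 0.05. The largest rises are those of RELB (2.17), NFKB2 (1.94) and CEBPB (1.71), and the dashed line is the median of all tested genes, -0.13.

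KO replicate 2, the library farthest from VC on the first component, was also the most extreme for most of these genes. It was the highest KO library for 15 of the 17 pathway genes that rose and the lowest for 7 of the 8 that fell. The same count was not made over all called genes, so this order cannot be called particular to the pathway genes. Without KO replicate 2, 12 of the 57 genes were higher and 5 lower, with 4393 of all genes called. Leaving out KO replicate 3 gave 12 higher and 3 lower, with 2018 of all genes called. The fall in these counts was thus not particular to KO replicate 2.

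Since CSF1R and TREM1 are genes of myeloid cells, myeloid markers were read beside them. Of 14 such markers, 4 had no value in any library, namely FCGR3A, MPO, S100A8 and S100A9. The leukocyte marker PTPRC lay between -4.78 and -4.41 in VC and between -7.12 and -4.35 in KO, and CD14 between -4.58 and -3.80 in VC, with 1 KO value of -6.56. Of the 6 markers tested, 2 were higher in KO, the lysosomal gene CD68 by 1.66 (limma adjusted p = 0.00963) and the integrin ITGAX by 1.25 (limma adjusted p = 0.00985), where 13.1% of all genes were called higher. The other 4 had lower means in KO and were not called, with differences of -1.18 for PTPRC, -1.04 for ITGAM, -1.08 for LYZ and -0.66 for SPI1 (limma adjusted p = 0.236, 0.138, 0.195 and 0.09). The summed linear signal of the list was 22.5 to 23.6 in VC and 53.4 to 89.3 in KO. Without CD68, which other cells also express, the sum was 0.807 to 0.926 in VC and 1.08 to 1.29 in KO. Without CD68 and ITGAX, the 2 markers called higher, it was 0.422 to 0.55 in VC and 0.194 to 0.312 in KO. Leaving out these 2 markers fixed the direction of that sum. Both reduced sums were chosen after the values were seen. The part of these markers in the CSF1R and TREM1 signals was not tested. The 7 lymphoid markers summed to 0.263 to 0.44 in VC and 0.326 to 0.50 in KO, the 5 endothelial markers to 0.0672 to 0.117 and 0.0894 to 0.163, and the 5 epithelial markers, nearly all of it EPCAM, to 3.09 to 3.49 and 1.79 to 2.24.

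Genes with the most similar pattern were found for the 4 members with 6 values, by the root mean square difference of deviations from the gene mean over the 6 libraries, among 17697 genes. Nearest to CSF2 were PTGS2 (0.44), which makes prostaglandins, and the cytokine genes IL1A (0.54) and IL1B (0.54). CSF3 was followed most closely by the stress-induced SESN2 (0.14), the interleukin-1 receptor kinase IRAK2 (0.23) and the NF-kB target BIRC3 (0.26). For CSF1R the nearest were FEV (0.11), CD22 (0.12) and the cell cycle inhibitor CDKN1A (0.16). CSF1 was nearest to NABP2 (0.032), HHEX (0.038) and SLC43A2 (0.038), genes that, like CSF1, differed little between the groups. CSF2 and CSF3 themselves were 1.17 apart by this measure, and CSF3 and CSF1R 0.54 apart. The measure takes the size and the shape of a difference over 6 libraries and does not bear on shared function.

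**Figure D5:**
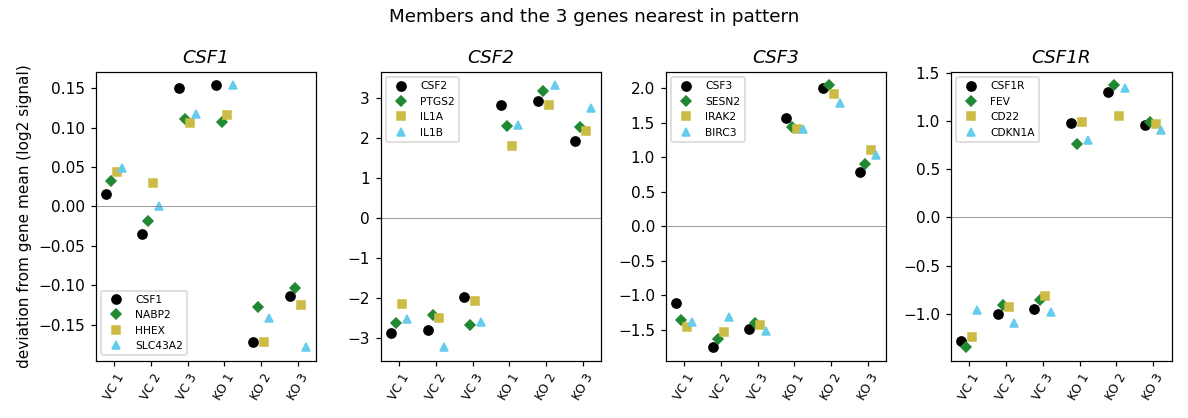
Deviation of the log2 signal from the gene's own mean (y axis) in the 6 libraries for CSF1, CSF2, CSF3 and CSF1R (black circles) and the 3 genes nearest to each (coloured symbols), with a y axis of its own for each panel. In CSF2, CSF3 and CSF1R all genes shown are above their mean in the 3 KO libraries, and in CSF1 the deviations stay under 0.2.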

How the data were processed

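Total RNA of 143B cells was sequenced by the authors on an Illumina NextSeq instrument in 3 VC and 3 KO libraries, grouped by their labels. The labels name a stranded mRNA kit and the methods total RNA sequencing. The methods name CLC Genomics and Partek software, and the submitters' processing notes name CASAVA, STAR, Partek and GRCh38.p13. The authors deposited 1 table of log2 signals, quantile-normalized between libraries. Its linear unit, annotation and read counts are not given in the sources used here, so no counting interval could be given, and low signals rest on an unknown number of reads.

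Signals were used as deposited. The 19306 genes that had 2 or more values per group were fitted with limma 3.58.1 in R 4.3.3 (empirical Bayes without trend), with two-sided p-values adjusted by the Benjamini-Hochberg method over all of them and called under 0.05. The fit was tested on simulated data. The series' design text calls the libraries biological replicates, and their cultures are not named, so p-values measure the spread between these libraries. The 5 members and the lists of partners and markers were chosen with earlier results of these data known. Members have no test. From the list for shedding and sorting, 1 gene is not reported here. The text names the members, every ligand, receptor and TREM gene with a value, the called genes of the other lists, of which the 3 with the largest rise and the 3 with the largest fall are given in full where more than 6 were called, and the 3 genes nearest in pattern to each member. SPI1 and TYROBP stand in both a partner list and the myeloid list. The motifs were chosen after the sequences were seen. Alternatives were median-centred libraries, 1 added to the linear signal, genes in the upper 50% of mean signal, genes with 6 values, a replicate block, moderation with trend and robust estimation, no moderation, empty cells at the lowest signal, and each library left out in turn.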

Additional observations from a re-analysis of the deposited data

How the results depend on the processing

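The differences of the 5 members moved by less than 1 SD of their replicates with median-centred libraries, with the replicate block and with any library left out. In those last fits they ranged from -0.19 to -0.023 for CSF1, 4.93 to 5.42 for CSF2, 2.62 to 3.23 for CSF3, 2.05 to 2.22 for CSF1R and 3.77 to 4.95 for TREM1, which could not be fitted without VC replicate 2 or 3. With 1 added to the linear signal they were -0.066 for CSF1, 0.98 for CSF2, 1.72 for CSF3, 0.14 for CSF1R and 0.15 for TREM1, and the median of all tested genes went from -0.13 to -0.023. Of the 57 partners tested, 14 changed the sign of their difference in some fit, with 25 values in all, and none of the 14 was called in either fit. With median-centred libraries the changed values were 0.030 for JAK1, 0.031 for STAT3, 0.077 for STAT5B, 0.053 for CISH, 0.036 for RUNX1, 0.056 for RC3H2 and 0.049 for RHBDF2. With each library left out in turn the differences of those that changed sign ranged from -0.041 to 0.68 for CARD9, -0.061 to 0.061 for TYK2, -0.12 to 0.0040 for STAT3, -0.057 to 0.028 for STAT5B, -0.25 to 0.0087 for SOCS3, -0.18 to 0.10 for CISH, -0.080 to 0.12 for REL, -0.028 to 0.20 for ETS2, -0.049 to 0.053 for NFATC1, -0.20 to 0.019 for ZFP36 and -0.10 to 0.013 for RHBDF2. The KO minus VC difference of the summed linear signal of the myeloid markers was 49.5 with all markers, 0.323 without CD68 and -0.233 without CD68 and ITGAX. The reduced sums were chosen after seeing the data, and the last left out the markers called higher, which fixed its direction. Without single libraries the genes called numbered 1223 to 8669, the partners higher in KO 9 to 15 and those lower 2 to 16, and 11 of the 25 called partners were called in all 6 of these fits. Without variance moderation 4 partners were lower. Replicates with the same number did not deviate together (r = 0.023, 0.0051 and -0.0074). These values gave no sign of a pairing by number, but with 3 libraries a group they cannot exclude one. A replicate block, which leaves 2 residual degrees of freedom, left 1533 genes, 6 partners higher and 3 lower. The read depth is unknown, so the precision of signals near the lower end, such as those of TREM1 and the receptor chains, cannot be given.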
